A study of Homo sapiens with 9 samples.

Results

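Long noncoding RNAs (lncRNAs) are transcripts of more than a minimal length that are not translated into known proteins. The 261 described here are the expressed lncRNAs of HEYA8 cells, taken from 13812 genes that the deposited count table gives as lincRNA, antisense or processed transcript and from 58735 genes in all. They were selected on their measured level, a mean of at least 5 CPM (the read count scaled to a common library total) over all 9 libraries. Of the remaining lncRNA genes 6882 had no count in any library and 6669 had a count but a mean under 5 CPM. The selection took 110 lincRNAs, which lie between coding genes, 95 antisense genes and 56 processed transcripts, and 82 of the 261 carry only a clone-style name. Just inside the limit were AP001505.1 at 5.10, CD27-AS1 at 5.05 and AC092368.3 at 5.03 CPM, and just outside it were HDAC2-AS2 at 4.99, AL365356.5 at 4.95 and LINC02407 at 4.93 CPM. Because the level itself was the criterion, a gene could enter through 1 high group alone. In 195 genes the mean of each of the 3 groups was at least 5 CPM, and in 66 at least 1 group mean was lower.

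HEYA8 is an established human ovarian cancer line that the labels describe as high-grade serous and wild type. The cells were treated for 24 h with compound 32, with sunitinib, which blocks a range of receptor tyrosine kinases, or with the solvent DMSO alone, in 3 libraries each. The series asks how sunitinib changes the transcriptome in a study of its combination with cisplatin, but no sample received cisplatin. Doses, and the structure of compound 32, are not stated in the sources used here. Sunitinib and DMSO samples are called biological replicates in the series text, which says nothing of this kind for compound 32, so its p-values measure the spread between samples that may be technical. All groups are cultures of 1 line. RNA was selected on oligo(dT) beads, so transcripts without a poly(A) tail are under-represented. In bulk RNA, a change in the share of cells that express a lncRNA and a change in its level per cell cannot be told apart.

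Library totals ran from 15.5 to 18 M counts. Sunitinib replicate 3 stood apart from its group. Over the 261 lncRNAs its log2 CPM values correlated at 0.9417 and 0.9463 with those of the other two sunitinib libraries, while all other pairs within a group reached at least 0.9807. These correlations are across genes, which are not independent replicates. Ribosomal protein genes took 6.97% and mitochondrial genes 5.36% of this library, against 3.71 to 4.53% and 3.42 to 3.92% in the other 8 libraries. The main counts and many single values that involve sunitinib are therefore given with and without it. Where no value without it is given, the value includes this library. Of 9 markers of Mullerian and serous ovarian carcinoma 7 were at 1 CPM or more in every library, among them PAX8 at 117 CPM with compound 32, 123 CPM with sunitinib and 132 CPM with DMSO. MUC16 was at most 0.325 CPM in any library. All 4 mesenchymal markers were present, with VIM between 3284 and 4519 CPM. None of 5 fibroblast and 5 leukocyte markers reached 1 CPM in every library. Of 3 endothelial markers CDH5 did, at 4.09 CPM with compound 32, 13.8 CPM with sunitinib and 7.36 CPM with DMSO.

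A few lncRNAs are structural parts of the nucleus, as NEAT1 is of paraspeckles. Many others serve as carriers: small nucleolar RNAs (snoRNAs), which guide chemical modification of ribosomal RNA, and microRNAs (miRNAs) are cut out of their introns or exons. A large further group starts close to a coding gene on the opposite strand and shares its promoter region. Many lncRNAs of that last group are short-lived and are held at low levels by nuclear decay.

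The sequences of the miRNAs that expressed hosts carry are shown because hosts of related miRNAs had different values in the treatments described further on. In GENCODE 29, 19 of the 261 genes held on their own strand a total of 63 mature miRNAs listed by RefSeq (GRCh38.p14). The mature miRNAs were not measured, since the libraries hold polyadenylated RNA. Capitals mark the seed, bases 2 to 8, with which a miRNA pairs to its targets. MIR17HG (chr13:91347820-91354579, plus strand) carries a cluster of 6 hairpins. Within it miR-17-5p and miR-20a-5p share 1 seed, and miR-19a-3p and miR-19b-3p share another.
hsa-miR-17-5p: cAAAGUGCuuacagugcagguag
hsa-miR-20a-5p: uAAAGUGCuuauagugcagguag
hsa-miR-18a-5p: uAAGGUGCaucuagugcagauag
hsa-miR-19a-3p: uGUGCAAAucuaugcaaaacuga
hsa-miR-19b-3p: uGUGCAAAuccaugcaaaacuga
hsa-miR-92a-3p: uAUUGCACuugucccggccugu

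DLEU2 (chr13:49982552-50125720, minus strand) holds miR-15a and miR-16, and MIR503HG (chrX:134543337-134546632, minus strand) holds miR-503. The 3 mature sequences share bases 2 to 7. MIR34AHG carries miR-34a, MIR22HG carries miR-22, and MIR3142HG carries miR-146a beside miR-3142.
hsa-miR-15a-5p: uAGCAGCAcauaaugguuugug
hsa-miR-16-5p: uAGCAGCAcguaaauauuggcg
hsa-miR-503-5p: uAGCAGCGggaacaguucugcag
hsa-miR-34a-5p: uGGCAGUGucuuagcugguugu
hsa-miR-22-3p: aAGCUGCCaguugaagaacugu
hsa-miR-146a-5p: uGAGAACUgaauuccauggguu

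Promoter sequences, from 250 bases before to 50 after the RefSeq start (GRCh38.p14), were matched for 126 of the lncRNAs. In some the RefSeq start lies far from the start of the gene as counted, by 455874 bases in MIR100HG and 196865 bases in LINC-PINT. Such windows are not promoters at the counted start. PSMG3-AS1 (chr7:1569823-1570122, plus strand) had the largest sunitinib rise with a promoter in the table, LINC02310 (chr14:51397086-51397385, minus strand) had the largest compound 32 rise, and SNHG1 (chr11:62855836-62856135, minus strand) starts 188 bases from the start of the coding gene SLC3A2. Capitals mark matches, on either strand, to the core of the hypoxia response element (ACGTG) or to an E2F site (TTCCCGCC).
PSMG3-AS1 promoter: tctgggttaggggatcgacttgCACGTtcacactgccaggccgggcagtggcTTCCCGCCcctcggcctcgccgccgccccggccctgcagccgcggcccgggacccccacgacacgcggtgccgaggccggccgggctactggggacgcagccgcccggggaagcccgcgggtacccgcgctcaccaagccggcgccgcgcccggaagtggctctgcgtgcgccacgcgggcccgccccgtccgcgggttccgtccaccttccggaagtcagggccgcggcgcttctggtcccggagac
LINC02310 promoter: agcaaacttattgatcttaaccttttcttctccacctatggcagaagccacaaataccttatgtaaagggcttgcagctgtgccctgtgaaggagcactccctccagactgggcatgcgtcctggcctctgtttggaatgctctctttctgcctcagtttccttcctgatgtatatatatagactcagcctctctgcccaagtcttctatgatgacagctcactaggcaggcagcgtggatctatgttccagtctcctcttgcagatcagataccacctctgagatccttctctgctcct
SNHG1 promoter: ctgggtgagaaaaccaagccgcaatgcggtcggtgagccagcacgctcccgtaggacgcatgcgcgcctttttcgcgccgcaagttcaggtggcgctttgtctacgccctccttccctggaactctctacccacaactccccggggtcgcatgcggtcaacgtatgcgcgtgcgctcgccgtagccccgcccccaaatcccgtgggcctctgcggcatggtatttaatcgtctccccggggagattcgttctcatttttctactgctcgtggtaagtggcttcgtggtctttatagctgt
ACGTG occurred in 43 of the 126 lncRNA promoters (34.1%), against 21.4% of 35116 promoters in the whole table. The 43 include distant windows, as in LINC-PINT and MIR34AHG (16567 bases away). TTCCCGCC occurred in 6 (4.76%), against 3.16%. The ATF4 composite element TGATGCAA occurred in 0, against 0.866%. Such matches describe the letters in these windows. Whether any is bound was not tested.

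Taken as 1 pool, expressed lncRNAs held more of the library with sunitinib and less with compound 32. Their share of all counts was 0.466, 0.475 and 0.460% with compound 32, 0.694, 0.692 and 0.736% with sunitinib and 0.528, 0.522 and 0.534% with DMSO. The 3 groups did not overlap. The mean was 0.467 ± 0.00728% with compound 32, 0.707 ± 0.0249% with sunitinib and 0.528 ± 0.00595% with DMSO (SD, n = 3 each). The ratio to DMSO was 0.884 for compound 32 and 1.34 for sunitinib, and that of compound 32 to sunitinib was 0.66. Over the 195 genes with every group mean at 5 CPM or above, the share was 0.436 ± 0.00662% with compound 32, 0.647 ± 0.0256% with sunitinib and 0.494 ± 0.00562% with DMSO, again without overlap. The shares are a description with no test, since the genes were selected on their counts in these libraries. Without NEAT1, the most abundant lncRNA, the means were 0.449% with compound 32, 0.61% with sunitinib and 0.486% with DMSO, and the groups remained apart.

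**Figure D1:**
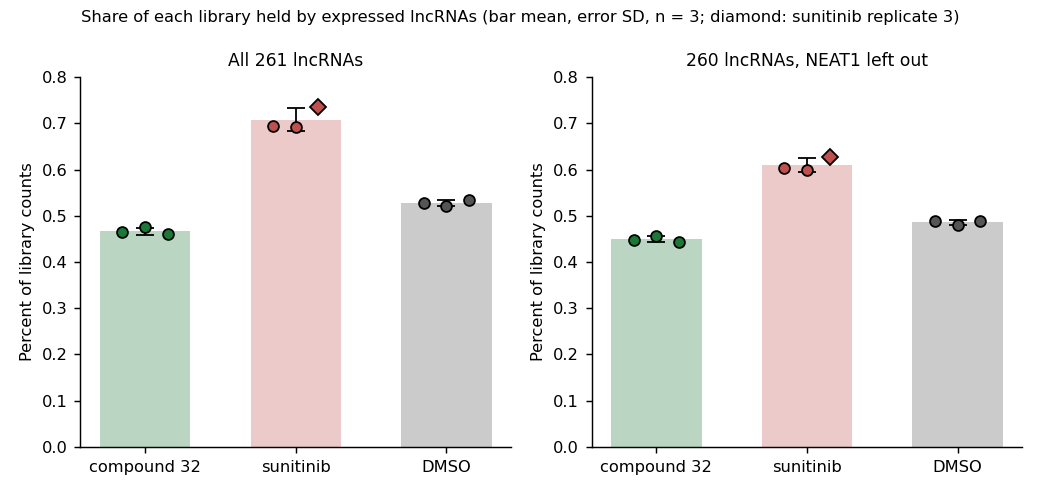
Percent of each library's counts held by the expressed lncRNAs (y axis), by treatment (x axis), for all 261 genes on the left and without NEAT1 on the right. Points are libraries, bars are means and error bars are SD (n = 3). Sunitinib libraries lie at 0.692% or above in the left panel, compound 32 libraries at 0.475% or below, and DMSO libraries between them.

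Gene by gene, tests were made with edgeR over all 15232 genes that passed its count filter, and a gene was called at an adjusted p under 0.05. All 261 lncRNAs passed that filter. With sunitinib, 122 of them were called higher than with DMSO (46.7%) and 24 lower (9.2%). Of all genes tested 20.3% were called higher and 19.9% lower. The median log2 fold change was 0.36 over the lncRNAs and 0.02 over all genes. Without sunitinib replicate 3, 134 were higher and 36 lower, beside 25.1 and 26.3% of all genes, with a median of 0.30. At 2-fold or more the numbers were 33 higher (12.6%) and 3 lower (1.15%), beside 5.67% and 2.23% of all genes. Among the 195 genes with every group mean at 5 CPM or above, 76 were higher and 22 lower.

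With compound 32 the balance was the other way and the changes were fewer. Against DMSO 22 lncRNAs were called higher (8.43%) and 47 lower (18%), beside 12% and 10.3% of all genes. The median was -0.10, against 0 for all genes. Without sunitinib replicate 3, which enters this comparison through the shared estimate of the spread, the filter and the scaling, the calls became 40 higher and 79 lower, beside 21.6% and 20.5% of all genes. At least a 2-fold change was reached by 2 higher (0.766%) and 6 lower lncRNAs (2.3%), beside 2.01% and 1.14% of all genes. Among the 195 genes with every group mean at 5 CPM or above, 20 were higher and 36 lower.

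Set directly against sunitinib, compound 32 gave 31 lncRNAs higher (11.9%) and 146 lower (55.9%), beside 24.1% and 25.2% of all genes. The median was -0.47, against -0.03 for all genes. Without sunitinib replicate 3 these were 40 higher and 155 lower, with 29.7% and 29% of all genes. At 2-fold or more there were 6 higher and 59 lower, beside 5.38% and 8.08% of all genes. Of the 195 genes with every group mean at 5 CPM or above, 28 were higher and 96 lower. The comparisons of each compound with DMSO share the same 3 DMSO libraries, so their values for a gene are given side by side.

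**Figure D2:**
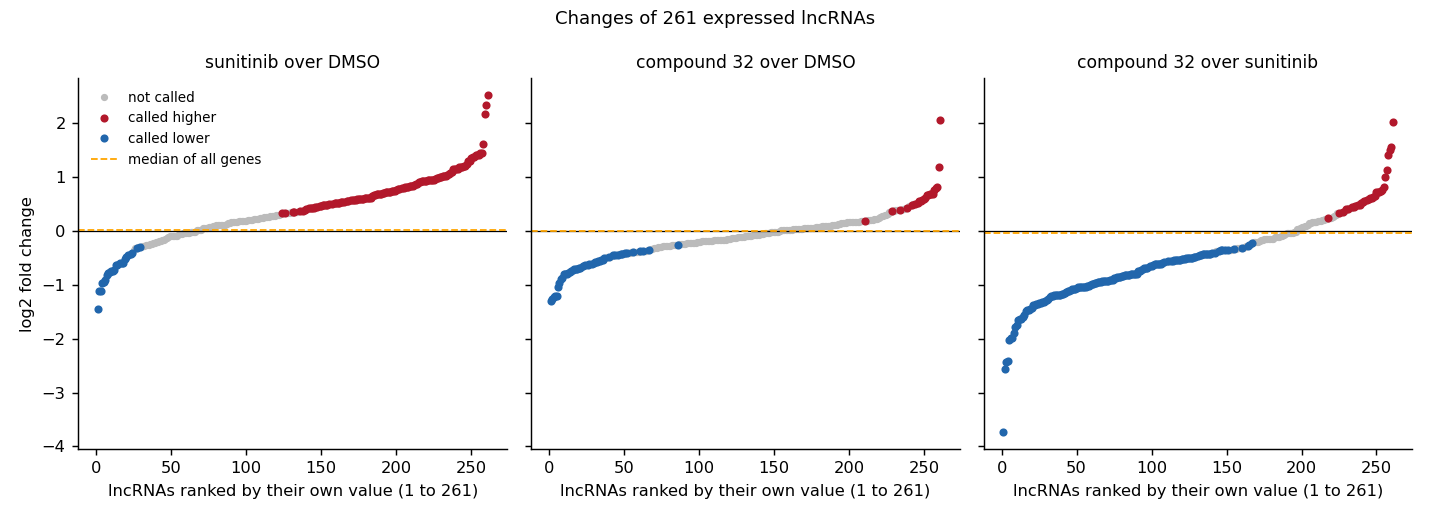
Log2 fold change (y axis) of each of the 261 lncRNAs, ranked within each comparison by its own value (x axis), for sunitinib over DMSO, compound 32 over DMSO and compound 32 over sunitinib. Red and blue points were called higher and lower, grey points were not called, and the dashed line is the median of all genes tested. The values span -1.45 to 2.52 for sunitinib, -1.29 to 2.06 for compound 32 and -3.73 to 2.02 between the compounds.

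The level and class of a gene can bear on such counts, so coding genes of like level were set beside them. Of 208 lncRNAs from 5 to under 20 CPM, sunitinib gave 49% higher and 6.25% lower. Of 2649 protein-coding genes in that range it gave 28.2% higher and 14.7% lower. For compound 32 against DMSO these shares were 9.13% higher and 15.4% lower in the lncRNAs, and 14.9% higher and 10.6% lower in the coding genes. Over the 3 biotypes the sunitinib counts were 49 higher and 9 lower of 110 lincRNAs, 47 and 6 of 95 antisense genes, and 26 and 9 of 56 processed transcripts. With compound 32 against DMSO they were 15 and 17, 5 and 18, and 2 and 12. Of all genes 20.3% were higher and 19.9% lower with sunitinib, and 12% and 10.3% with compound 32. Whether reads were counted by strand is not stated in the sources used here, so reads of a lncRNA and of a gene on the other strand cannot be told apart where exons overlap. In 96 lncRNAs no exon base is shared with another gene. Of these sunitinib raised 41 (42.7%) and lowered 6 (6.25%), while compound 32 raised 12 (12.5%) and lowered 13 (13.5%). The compound 32 shares were near those of all genes, with no clear balance downward in these 96.

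The structural lncRNAs of the nucleus were led by NEAT1 (chr11:65422774-65445540, GRCh38, plus strand), the scaffold of paraspeckles. NEAT1 had 186, 186 and 163 CPM with compound 32, 855, 893 and 1097 CPM with sunitinib and 391, 426 and 461 CPM with DMSO. Its 3 groups were far apart, high with sunitinib and low with compound 32. The log2 fold change was 1.16 ± 0.10 (SE) for sunitinib over DMSO (adjusted p = 7.87e-06), or 1.04 without replicate 3. For compound 32 over DMSO it was -1.26 ± 0.11 (adjusted p = 1.08e-05), and for compound 32 over sunitinib -2.41 ± 0.11 (adjusted p = 2.23e-08). NEAT1 has a short polyadenylated and a long form that shares its start, and counts per gene do not separate them.

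NORAD (chr20:36045622-36050960, minus strand), which binds Pumilio proteins in the cytoplasm, was called higher with sunitinib. It had 379, 399 and 351 CPM with compound 32, 549, 550 and 518 CPM with sunitinib and 404, 370 and 404 CPM with DMSO. The sunitinib values lay above all others, while compound 32 and DMSO overlapped. Sunitinib over DMSO gave 0.46 ± 0.07 (adjusted p = 0.000428), 0.48 without replicate 3, and compound 32 over DMSO gave -0.06 ± 0.07 (adjusted p = 0.61). The difference between compound 32 and sunitinib was -0.52 ± 0.07 (adjusted p = 0.000117). NEAT1 and NORAD together made up 16.9% of the CPM of all 261 lncRNAs, and the 10 most abundant 36.1%.

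MALAT1, a component of nuclear speckles whose mature end has no poly(A) tail, was close in all groups. It had 153, 167 and 152 CPM with compound 32, 161, 164 and 200 CPM with sunitinib and 174, 186 and 197 CPM with DMSO. The change with sunitinib was -0.09 ± 0.09 (adjusted p = 0.473) and, without replicate 3, -0.19 (adjusted p = 0.000644). With compound 32 it was -0.24 ± 0.09 (adjusted p = 0.0799), and -0.24 (adjusted p = 1.11e-05) without sunitinib replicate 3. MALAT1 was thus called lower by a small amount in both treatments where sunitinib replicate 3 was left out, and in neither with it. OIP5-AS1, known as cyrano in fish and a binder of miR-7, gave 0.17 ± 0.07 (adjusted p = 0.0909) with sunitinib and 0.05 ± 0.07 (adjusted p = 0.681) with compound 32. KCNQ1OT1, an imprinted antisense transcript, gave 7.54 CPM in sunitinib replicate 3 against 16.4 and 17.3 CPM in the other two sunitinib libraries, and was called in no comparison of all 9 libraries. Of these 5 structural lncRNAs 2 were called higher with sunitinib and 1 lower with compound 32, beside 20.3% and 10.3% of all genes. Without sunitinib replicate 3 there were 2 higher and 1 lower with sunitinib, and 1 higher and 2 lower with compound 32. The shares of all genes were then 25.1% and 26.3% with sunitinib, and 21.6% and 20.5% with compound 32. So few genes cannot be told apart from these shares.

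**Figure D3:**
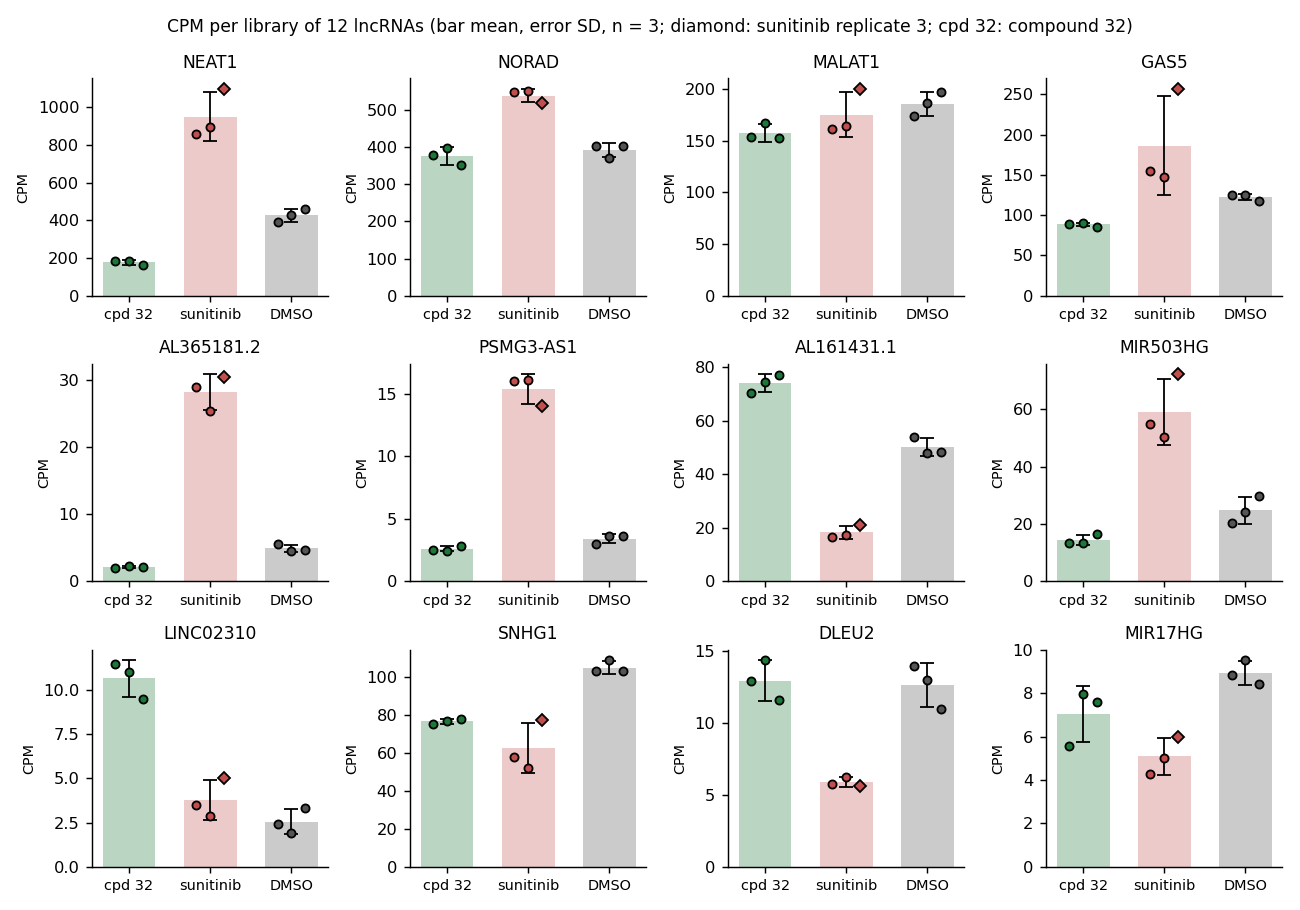
CPM per library (y axes, each from 0) of 12 lncRNAs in compound 32, sunitinib and DMSO libraries (x axes). Points are libraries, diamonds mark sunitinib replicate 3, bars are means and error bars SD (n = 3). NEAT1, AL365181.2 and MIR503HG were highest with sunitinib and lowest with compound 32, while AL161431.1 was highest with compound 32 and lowest with sunitinib.

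Host genes of snoRNAs were called in both directions with sunitinib and downward with compound 32. Of 19 hosts sunitinib raised 7 and lowered 6, with a median log2 fold change of 0.22, beside 20.3% and 19.9% of all genes. Without replicate 3 the hosts gave 6 higher and 8 lower, with a median of -0.01, beside 25.1% and 26.3% of all genes. Compound 32 raised 0 and lowered 8 against DMSO (median -0.39), beside 12% and 10.3% of all genes. Without sunitinib replicate 3 it raised 1 and lowered 16, beside 21.6% and 20.5% of all genes.

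SNHG1 (chr11:62851988-62855914), which spans 7 annotated snoRNA genes, was lower with both compounds. It had 75.3, 76.8 and 77.9 CPM with compound 32, 58, 52.3 and 77.4 CPM with sunitinib and 103, 109 and 103 CPM with DMSO. Both treated groups lay wholly below DMSO, and sunitinib replicate 3 lay at the level of compound 32. Sunitinib over DMSO gave -0.75 ± 0.12 (adjusted p = 0.000414), -0.93 without replicate 3, and compound 32 over DMSO -0.45 ± 0.12 (adjusted p = 0.016).

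SNHG4 had 33.3, 29.5 and 33.5 CPM with compound 32, 41, 40.6 and 48.3 CPM with sunitinib and 67.7, 63.3 and 65.4 CPM with DMSO. The groups did not overlap. The fall was 1.03 with compound 32 (-1.03 ± 0.09, adjusted p = 1.16e-05) and smaller with sunitinib (-0.60 ± 0.09, adjusted p = 0.000225). The difference between the compounds, -0.43 ± 0.09, was itself called (adjusted p = 0.00169). SNHG4 shares 16.6% of its exon bases with other genes, among them the coding gene MATR3 on the same strand.

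SNHG7, with 31, 29 and 34.5 CPM in compound 32 libraries, 47.1, 48.6 and 49.1 CPM in sunitinib libraries and 54.6, 57.7 and 51.6 CPM in DMSO libraries, fell by 0.79 on the log2 scale with compound 32 (adjusted p = 4.43e-05). With sunitinib its change was -0.18 ± 0.08 (adjusted p = 0.09). SNHG3 fell with both compounds, by 0.74 with compound 32 (adjusted p = 0.00266) and by 0.42 with sunitinib (adjusted p = 0.0283). It shares 242 exon bases with RCC1, a coding gene on the same strand at 164 CPM in DMSO. RCC1 gave -0.25 ± 0.06 (adjusted p = 0.00906) and -0.69 ± 0.06 (adjusted p = 3.68e-06) in the same comparisons, and the counts may not separate the 2 genes. SNHG16 changed by -0.39 ± 0.07 with compound 32 (adjusted p = 0.0033) and -0.29 ± 0.07 with sunitinib (adjusted p = 0.00898). SNHG12 fell with sunitinib (-0.76 ± 0.12, adjusted p = 0.0004) and was not called with compound 32 (-0.27 ± 0.11, adjusted p = 0.12). SNHG14, the very long imprinted transcript that runs antisense through UBE3A and spans 84 annotated snoRNA genes, rose with sunitinib by 0.42 ± 0.09 (adjusted p = 0.00385).

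GAS5, named for its accumulation in growth-arrested cells, had a wide spread within the sunitinib group. It had 89.2, 90.4 and 85.7 CPM with compound 32, 155, 147 and 257 CPM with sunitinib and 125, 125 and 118 CPM with DMSO. No groups overlapped, but sunitinib replicate 3 was far above its partners. The rise with sunitinib was 0.60 ± 0.17 (adjusted p = 0.0159) with that library and 0.30 (adjusted p = 4.72e-07) without it. Compound 32 over DMSO gave -0.47 ± 0.17 (adjusted p = 0.0748), and -0.47 (adjusted p = 7.86e-13) without sunitinib replicate 3. SNHG6, SNHG5 and SNHG8 had the same library high: SNHG6 at 147 CPM against 74.3 and 81.5 CPM in the other two, SNHG5 at 40.1 CPM against 19.1 and 20.3 CPM, and SNHG8 at 39.2 CPM against 23.9 and 23.8 CPM. The library is also the one with the highest ribosomal protein share, and the part of that share in these values was not tested. The call for SNHG8 with sunitinib (0.48 ± 0.17, adjusted p = 0.0437) was lost without it (0.20, adjusted p = 0.0707).

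**Figure D4:**
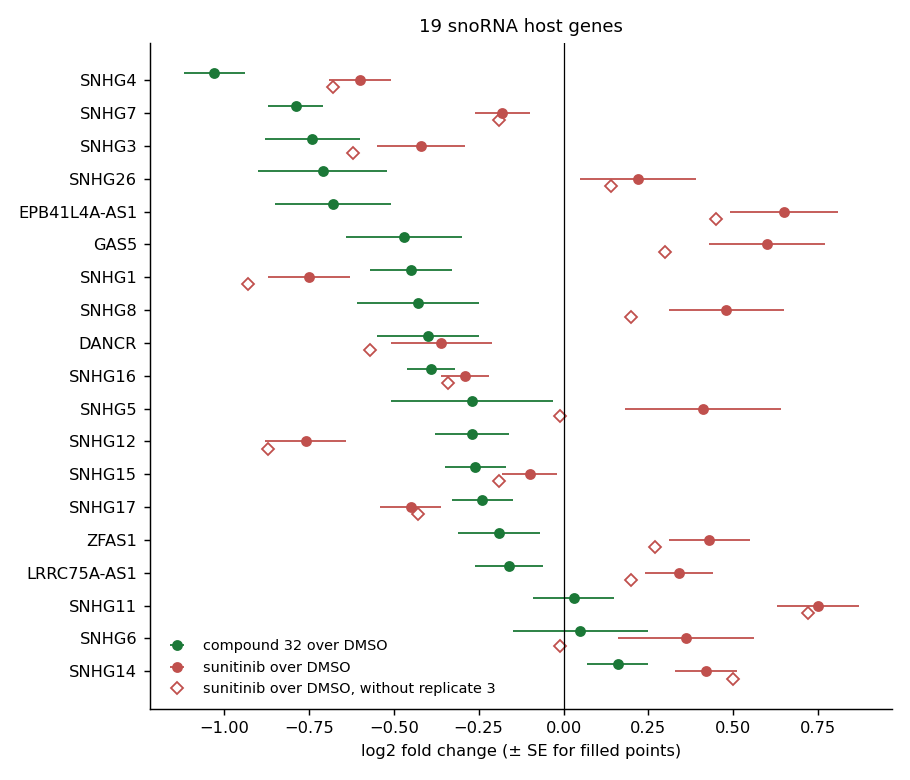
Log2 fold change over DMSO (x axis) of the 19 snoRNA host genes (y axis, ordered by the compound 32 value). Green points are compound 32 and red points sunitinib, each with SE from 3 libraries per group, and open diamonds are sunitinib without replicate 3. SNHG4, SNHG7 and SNHG3 lie lowest for compound 32, and SNHG5 and SNHG6 move most between the filled and the open sunitinib symbols.

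Among 12 lncRNAs on the list of miRNA hosts, sunitinib raised 4 and lowered 3, and compound 32 raised 1 and lowered 1. Of all genes sunitinib raised 20.3% and lowered 19.9%, and compound 32 raised 12% and lowered 10.3%. Without sunitinib replicate 3, compound 32 raised 2 and lowered 4. MIR17HG, host of the growth-promoting miR-17 to miR-92a cluster printed above, had 5.56, 7.95 and 7.59 CPM with compound 32, 4.29, 5.02 and 5.98 CPM with sunitinib and 8.82, 9.53 and 8.43 CPM with DMSO. Both treated groups were below DMSO and overlapped each other. The change was -0.82 ± 0.17 with sunitinib (adjusted p = 0.00236), -0.95 without replicate 3, and -0.34 ± 0.16 with compound 32 (adjusted p = 0.157).

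DLEU2, deleted in many chronic lymphocytic leukaemias together with its miR-15a and miR-16, had 12.9, 14.4 and 11.6 CPM with compound 32, 5.77, 6.26 and 5.59 CPM with sunitinib and 14, 13 and 11 CPM with DMSO. Sunitinib libraries were below all others, while compound 32 and DMSO overlapped. It fell with sunitinib by 1.11 (-1.11 ± 0.13, adjusted p = 6.05e-05), and the value was -1.08 without replicate 3. DLEU1, which overlaps it on the other strand, changed by -0.59 ± 0.14 (adjusted p = 0.00564). With compound 32 the values were 0.03 ± 0.12 (adjusted p = 0.896) for DLEU2 and 0.17 ± 0.13 (adjusted p = 0.412) for DLEU1.

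MIR503HG, whose miR-503 shares bases 2 to 7 with miR-15a and miR-16, was higher with sunitinib. It had 13.4, 13.3 and 16.6 CPM with compound 32, 55, 50.2 and 72.2 CPM with sunitinib and 20.3, 24.3 and 29.7 CPM with DMSO. The groups were fully apart. Sunitinib over DMSO gave 1.25 ± 0.16 (adjusted p = 0.000104), 1.08 without replicate 3, compound 32 over DMSO gave -0.78 ± 0.17 (adjusted p = 0.00751), and compound 32 over sunitinib -2.03 ± 0.17 (adjusted p = 2.26e-06).

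The host of miR-34a, MIR34AHG, a p53 target, was the gene of this list that compound 32 raised. It had 21.4, 23.7 and 20.9 CPM with compound 32, 16.1, 14.1 and 18.3 CPM with sunitinib and 13.9, 16.1 and 16.7 CPM with DMSO. Compound 32 libraries lay above all others. The change was 0.49 ± 0.12 with compound 32 (adjusted p = 0.0103) and 0.05 ± 0.12 with sunitinib (adjusted p = 0.753). Outside the list, CYTOR and MUC20-OT1 are also among the 19 genes that hold an annotated miRNA, and compound 32 raised them by 0.39 ± 0.10 (adjusted p = 0.0154) and 0.52 ± 0.09 (adjusted p = 0.00193). AC020916.1, GABPB1-AS1, ENTPD1-AS1 and TTC28-AS1 hold one too and were not called with compound 32 (adjusted p = 0.0669, 0.232, 0.77 and 0.933). MIR22HG and MIR3142HG, the host of the NF-kB-responsive miR-146a, rose with sunitinib by 0.33 ± 0.09 (adjusted p = 0.0156) and 0.75 ± 0.17 (adjusted p = 0.00472). Neither was called with compound 32 (adjusted p = 0.424 and 0.599). MIR100HG and MIR222HG, hosts of let-7a-2, miR-125b-1, miR-221 and miR-222 among others, were called in no comparison of all 9 libraries. In both, sunitinib replicate 3 was high, at 68 CPM for MIR100HG and 18 CPM for MIR222HG, against at most 52.5 and 10.9 CPM in the other two.

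The 3 largest rises with sunitinib were in AL365181.2, AL590560.1 and PSMG3-AS1. All 3 had a mean under 5 CPM with compound 32 and with DMSO, so their selection rested on the sunitinib group. AL365181.2 (chr1:156637783-156641004, minus strand) starts 386 bases from the start of BCAN, which encodes brevican, a proteoglycan of the extracellular matrix, and shares no exon base with it. It had 1.94, 2.32 and 2.09 CPM with compound 32, 28.9, 25.3 and 30.4 CPM with sunitinib and 5.51, 4.5 and 4.7 CPM with DMSO. The 3 groups were widely separated, in the order of NEAT1. Sunitinib over DMSO gave 2.52 ± 0.12 (adjusted p = 8.51e-08), 2.47 without replicate 3, compound 32 over DMSO -1.21 ± 0.16 (adjusted p = 0.000271), and compound 32 over sunitinib -3.73 ± 0.14 (adjusted p = 3.97e-09). Next to it, AL365181.3 (chr1:156641666-156644887, minus strand) had 55.9, 49.1 and 49.2 CPM with compound 32, 161, 165 and 142 CPM with sunitinib and 57, 59 and 59.4 CPM with DMSO. AL365181.3 rose with sunitinib by 1.42 ± 0.08 (adjusted p = 2.26e-07), and its value with compound 32 was -0.19 ± 0.08 (adjusted p = 0.117). BCAN itself, at 8.60 CPM in DMSO, rose by 1.16 ± 0.21 with sunitinib (adjusted p = 0.000983) and gave -0.19 ± 0.22 with compound 32 (adjusted p = 0.587). AL365181.3 shares 10.2% of its exon bases with BCAN, which the counts may not separate.

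PSMG3-AS1 (chr7:1570073-1589626, plus strand), beside the gene of a proteasome assembly chaperone, had 2.52, 2.44 and 2.81 CPM with compound 32, 16, 16.1 and 14 CPM with sunitinib and 2.98, 3.6 and 3.6 CPM with DMSO. Every sunitinib library was several times higher than any other. The rise was 2.17 ± 0.13 (adjusted p = 4.02e-07), 2.23 without replicate 3, and the compound 32 value -0.39 ± 0.16 (adjusted p = 0.0966). PSMG3 gave -0.22 ± 0.15 with sunitinib (adjusted p = 0.253). AL590560.1, an antisense gene of chromosome 1, had 3.62, 3.75 and 3.11 CPM with compound 32, 15.6, 20.9 and 20 CPM with sunitinib and 3.05, 4.44 and 3.6 CPM with DMSO. Only the sunitinib group stood apart, and the rise was 2.34 ± 0.16 (adjusted p = 1.2e-06).

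Further large rises with sunitinib came in neighbouring pairs and in lincRNAs with names but few known roles. DLGAP1-AS2 and DLGAP1-AS1 lie one after the other inside DLGAP1, the gene of a synaptic scaffold protein, and rose by 1.61 ± 0.13 (adjusted p = 3.68e-06) and 1.41 ± 0.11 (adjusted p = 2.45e-06). DLGAP1-AS2 had 10.8, 10.2 and 10.8 CPM with compound 32, 33.5, 31.9 and 44.6 CPM with sunitinib and 13.2, 11.2 and 11.6 CPM with DMSO. LINC00467 rose by 1.45 ± 0.17 (adjusted p = 4.52e-05), with 13.6, 11.7 and 18.4 CPM in sunitinib libraries and 4.93, 5.34 and 5.6 CPM in DMSO libraries. BX640514.2 rose by 1.44 ± 0.17 (adjusted p = 7.05e-05) and CCDC18-AS1 by 1.42 ± 0.13 (adjusted p = 1.14e-05). In none of these did sunitinib and DMSO libraries overlap. LINC01138 rose by 1.38 ± 0.19 (adjusted p = 0.000175), but 21.9% of its exon bases are shared with other genes in a duplicated stretch of chromosome 1. With compound 32 none of these 6 was called, the smallest adjusted p being 0.148, that of BX640514.2.

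Falls with sunitinib were fewer and smaller. AL161431.1 (chr13:109269634-109278512, plus strand), a lincRNA with no coding gene across its span, had 70.3, 74.3 and 77 CPM with compound 32, 16.5, 17.3 and 21.1 CPM with sunitinib and 53.9, 47.8 and 48.3 CPM with DMSO. The groups were apart in the order opposite to that of NEAT1. Sunitinib over DMSO gave -1.45 ± 0.10 (adjusted p = 8.7e-07), -1.57 without replicate 3, compound 32 over DMSO 0.56 ± 0.09 (adjusted p = 0.0013), and compound 32 over sunitinib 2.02 ± 0.10 (adjusted p = 3.87e-08).

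MANCR, the mitotically associated lncRNA, had 36.6, 34.3 and 36 CPM with compound 32, 25.5, 29.9 and 35.3 CPM with sunitinib and 59.9, 57.4 and 58.4 CPM with DMSO. Both treatments were below DMSO and overlapped each other. MANCR gave -0.96 ± 0.10 with sunitinib (adjusted p = 2.76e-05), -1.09 without replicate 3, and -0.72 ± 0.10 with compound 32 (adjusted p = 0.000498). LINC00705, which lies across MANCR on the other strand and shares 12.6% of its exon bases with it or other genes, gave -1.12 ± 0.21 (adjusted p = 0.00129) and -0.96 ± 0.21 (adjusted p = 0.00637) in the same comparisons. TRHDE-AS1 fell with sunitinib by 0.94 ± 0.11 (adjusted p = 4.84e-05), as did the coding gene TRHDE across from it by 1.04 ± 0.09 (adjusted p = 7.45e-06). With compound 32 both were lower too, at -0.40 ± 0.10 for TRHDE-AS1 (adjusted p = 0.0186) and -0.30 ± 0.09 for TRHDE (adjusted p = 0.0337). AC099850.3, the lncRNA with the highest CPM per kb of exon in DMSO (107), gave -0.78 ± 0.11 with sunitinib (adjusted p = 0.000154) and -0.51 ± 0.10 with compound 32 (adjusted p = 0.0051). It shares 30.2% of its exon bases with other genes, among them PRR11, a coding gene at 214 CPM in DMSO that gave -0.58 ± 0.06 (adjusted p = 1.69e-05) and -0.46 ± 0.06 (adjusted p = 0.000233) in the same comparisons.

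Compound 32 raised few lncRNAs, and LINC02310 (chr14:51392128-51397135, minus strand) most. It had 11.5, 11 and 9.5 CPM with compound 32, 3.49, 2.85 and 5.01 CPM with sunitinib and 2.4, 1.92 and 3.34 CPM with DMSO. Compound 32 libraries lay well above the rest, which overlapped. The rise was 2.06 ± 0.23 (adjusted p = 8.12e-05), and with sunitinib the value was 0.56 ± 0.25 (adjusted p = 0.0885). LINC02310 shares no exon base with another gene. Its mean level was at or above 5 CPM with compound 32 alone, so its selection rested on that group.

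SLC9A3-AS1, antisense to a sodium and proton exchanger gene, had 13.2, 13.9 and 15.7 CPM with compound 32, 10.3, 10.2 and 9.36 CPM with sunitinib and 6.94, 5.88 and 6.11 CPM with DMSO. It was higher with both compounds, by 1.18 ± 0.12 with compound 32 (adjusted p = 3.87e-05) and 0.66 ± 0.12 with sunitinib (adjusted p = 0.00112), and all 3 groups were apart. SLC9A3-AS1 shares 830 exon bases with SLC9A3, which had a mean of 1.23 CPM in DMSO. SLC9A3 gave 1.17 ± 0.27 (adjusted p = 0.0103) and 0.68 ± 0.28 (adjusted p = 0.074) in the same comparisons, and the counts may not separate the 2 genes. GDNF-AS1 rose with compound 32 by 0.80 ± 0.17 (adjusted p = 0.00628), and so did GDNF, a neurotrophic growth factor, by 1.15 ± 0.09 (adjusted p = 6.23e-06). GDNF-AS1 shares 12.5% of its exon bases, with GDNF among others, and GDNF fell with sunitinib by 0.85 (adjusted p = 3.73e-05), where GDNF-AS1 gave -0.20 ± 0.18 (adjusted p = 0.406). SREBF2-AS1, antisense to the regulator of cholesterol synthesis SREBF2, rose by 0.68 ± 0.15 with compound 32 (adjusted p = 0.00726), while SREBF2 gave 0.13 ± 0.12 (adjusted p = 0.496). OLMALINC, named for oligodendrocyte maturation, rose by 0.69 ± 0.14 (adjusted p = 0.00518), LINC00857 by 0.67 ± 0.10 (adjusted p = 0.000878) and LINC01128 by 0.66 ± 0.09 (adjusted p = 0.000302).

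The falls with compound 32 were led by AC093157.1, an antisense gene of chromosome 1 that starts beside DPH5, an enzyme of diphthamide synthesis. It had 5.11, 4.44 and 4.9 CPM with compound 32, 17.4, 20.4 and 19.3 CPM with sunitinib and 10.2, 11.6 and 13.7 CPM with DMSO. The groups were apart, high with sunitinib and low with compound 32. Compound 32 over DMSO gave -1.29 ± 0.14 (adjusted p = 6.45e-05) and sunitinib over DMSO 0.69 ± 0.12 (adjusted p = 0.000985). LINC00641 had 3.43, 4.19 and 5.68 CPM with compound 32, 9.47, 9.42 and 8.06 CPM with sunitinib and 10.7, 9.59 and 10.9 CPM with DMSO. Only compound 32 stood clearly apart, at -1.22 ± 0.17 (adjusted p = 0.00041), and sunitinib gave -0.21 ± 0.16 (adjusted p = 0.308).

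ZEB1-AS1, beside the gene of the mesenchymal transcription factor ZEB1, had 2.78, 2.82 and 2.57 CPM with compound 32, 9.63, 8.43 and 12.5 CPM with sunitinib and 4.74, 6.12 and 4.18 CPM with DMSO. Its groups were apart in the order of NEAT1, with -0.88 ± 0.21 for compound 32 (adjusted p = 0.0101) and 1.02 ± 0.18 for sunitinib (adjusted p = 0.00093). The compound 32 values of ZEB1-AS1 lay under 5 CPM, and its selection rested on the sunitinib group. It shares 366 exon bases with ZEB1, a gene at 122 CPM in DMSO, and the counts may not separate the 2 genes. KIF9-AS1 gave -0.89 ± 0.15 (adjusted p = 0.00149) and 0.73 ± 0.13 (adjusted p = 0.0011), and AC018647.2 -0.71 ± 0.12 (adjusted p = 0.00144) and 1.03 ± 0.11 (adjusted p = 2.35e-05) in the same 2 comparisons. PRKCQ-AS1 gave -0.80 ± 0.18 (adjusted p = 0.00751) and 0.52 ± 0.16 (adjusted p = 0.0235).

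The opposite order was seen in AC083843.2, a lincRNA with no coding gene across its span. It had 15, 15.4 and 14.7 CPM with compound 32, 5.61, 4.77 and 4.81 CPM with sunitinib and 8.37, 10.2 and 7.01 CPM with DMSO. The groups did not overlap. Compound 32 over DMSO gave 0.82 ± 0.14 (adjusted p = 0.00144), sunitinib over DMSO -0.75 ± 0.15 (adjusted p = 0.00196), and compound 32 over sunitinib 1.56 ± 0.14 (adjusted p = 4.68e-06).

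Counts were also made by the place of a lncRNA relative to coding genes. In 90 lncRNAs the start lies within 2 kb of the start of a coding gene on the other strand, an arrangement called divergent when the genes point away from each other. Of these sunitinib raised 58 (64.4%) and lowered 4, with a median of 0.52, beside 20.3% and 19.9% of all genes. They include AL365181.2 and PSMG3-AS1, whose selection rested on the sunitinib group. Among all 66 lncRNAs with a group mean under 5 CPM, 46 were higher with sunitinib and 2 lower. No count of this class without such genes was made. Compound 32 raised 3 and lowered 19 against DMSO, with a median of -0.18, and against sunitinib 4 were higher and 66 lower. The shares of all genes were 12% higher and 10.3% lower against DMSO, and 24.1% and 25.2% against sunitinib. The 112 lncRNAs that overlap no coding gene gave 47 higher and 11 lower with sunitinib, and 15 higher and 17 lower with compound 32. The 2 classes overlap in part and no test of the difference between them was made.

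The coding partners were spread around 0. Of 88 such pairs in which both genes were tested, the coding genes had a median of -0.04 with sunitinib, where the lncRNAs had 0.52. The coding genes needed only to pass the count filter, while the lncRNAs were also selected on their level. The 2 medians are thus not on equal terms. In 30 pairs both were called: 12 were both higher, 1 both lower, 15 had the lncRNA higher and the coding gene lower, and 2 the reverse. In a further 30 pairs the lncRNA alone was called, in 12 the coding gene alone and in 16 neither. Of all genes 20.3% were called higher and 19.9% lower with sunitinib. Whether both genes were called more often than their separate calls would give was not tested. Across the pairs the 2 log2 fold changes correlated at Pearson r = 0.17 and Spearman rho = 0.13, as a description over 88 pairs that come from the same libraries. In 41 of the pairs exons overlap. With compound 32 both were called in 6 pairs, 3 of them both lower and 3 with the lncRNA lower and the coding gene higher. The lncRNA alone was called in 16, the coding gene alone in 14 and neither in 52, beside 12% higher and 10.3% lower of all genes.

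SNHG1 and SLC3A2, which lie head to head in the promoter printed above, are a pair in which the lncRNA was lower and the coding gene higher with sunitinib. SLC3A2, the heavy chain of amino acid transporters, had a mean of 271 CPM in DMSO and rose with sunitinib by 0.70 ± 0.07 (adjusted p = 1.19e-05), where SNHG1 gave -0.75. With compound 32 SLC3A2 gave -0.05 ± 0.07 (adjusted p = 0.641), where SNHG1 gave -0.45. GABPB1-AS1 had 15.6, 17.2 and 14.9 CPM with compound 32, 39.1, 38.3 and 45.5 CPM with sunitinib and 19.6, 15.7 and 19.9 CPM with DMSO. It rose with sunitinib by 1.15 ± 0.11 (adjusted p = 1.32e-05), while GABPB1, a subunit of an ETS-family transcription factor, fell by 0.76 ± 0.11 (adjusted p = 0.000194). ZEB1 gave -0.33 ± 0.07 with sunitinib (adjusted p = 0.00208) and -0.25 ± 0.07 with compound 32 (adjusted p = 0.0208). SETD2, a histone methyltransferase gene beside KIF9-AS1, gave -0.40 ± 0.08 (adjusted p = 0.00157) and -0.31 ± 0.08 (adjusted p = 0.0138). HERPUD2 beside AC018647.2 rose together with it under sunitinib, by 0.56 ± 0.08 (adjusted p = 0.000215).

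**Figure D5:**
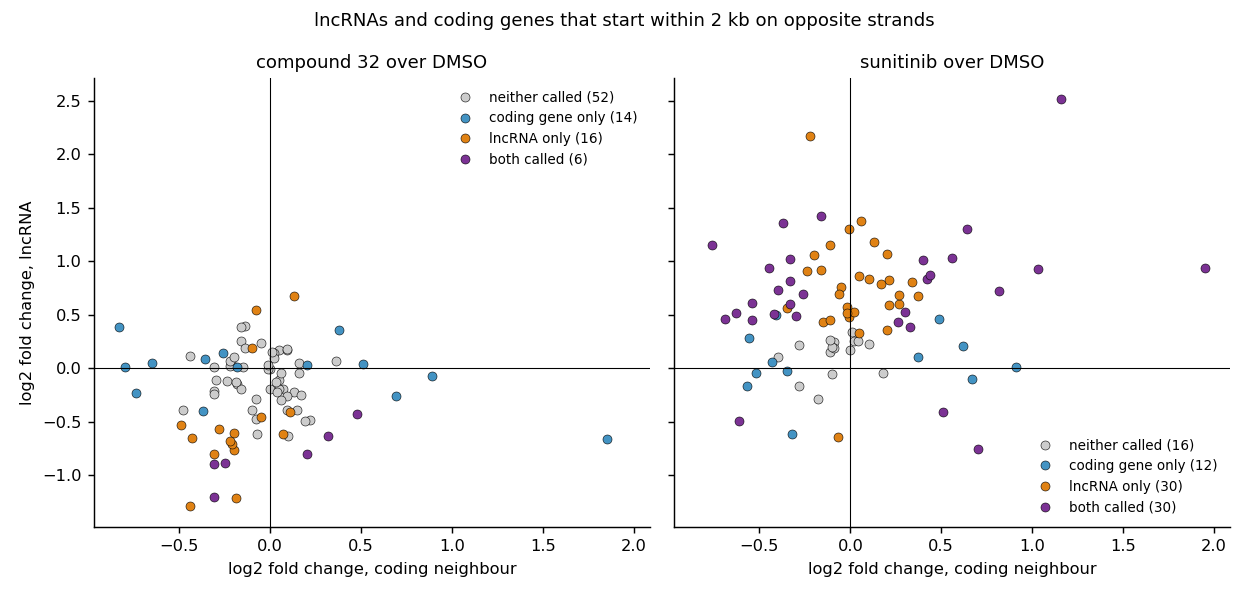
Log2 fold change of a lncRNA (y axis) against that of the coding gene whose start lies within 2 kb on the other strand (x axis), for 88 pairs, with compound 32 over DMSO on the left and sunitinib over DMSO on the right. Colours give which gene of a pair was called. With sunitinib most points lie above 0 on the y axis and spread to both sides of 0 on the x axis.

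Smaller lists by known role were also mixed. For reading their counts, sunitinib raised 20.3% and lowered 19.9% of all genes, and compound 32 raised 12% and lowered 10.3%. Of 5 p53-linked lncRNAs sunitinib raised 2, NEAT1 and PURPL, and compound 32 raised MIR34AHG and lowered NEAT1. PURPL, a p53-induced transcript, had 38.4, 37.8 and 36.1 CPM with compound 32, 56.7, 59.1 and 49.6 CPM with sunitinib and 35.8, 33.8 and 41.3 CPM with DMSO. Its sunitinib values were above all others, at 0.58 ± 0.09 (adjusted p = 0.000497), and compound 32 gave 0.02 ± 0.09 (adjusted p = 0.917). LINC-PINT gave 0.20 ± 0.21 with sunitinib (adjusted p = 0.466) and -0.61 ± 0.22 with compound 32 (adjusted p = 0.0695). Of 3 hypoxia-linked lncRNAs sunitinib raised 2, NEAT1 and LINC01139 (0.78 ± 0.16, adjusted p = 0.00253). Both inflammation-linked hosts, MIR22HG and MIR3142HG, were raised, as given above.

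Among 8 lncRNAs often studied in cancer sunitinib raised 3 and lowered 3, beside 20.3% and 19.9% of all genes. Compound 32 raised 1 and lowered 1, beside 12% and 10.3% of all genes. CYTOR rose with compound 32 by 0.39 ± 0.10 (adjusted p = 0.0154), with 45.9, 45.9 and 46 CPM, against 35.9, 37.1 and 32 CPM with DMSO. MIR4435-2HG, a near-identical copy of CYTOR, gave 0.02 ± 0.09 with compound 32 (adjusted p = 0.887) and fell with sunitinib by 0.31 ± 0.09 (adjusted p = 0.0176). Reads of these 2 copies can be split or swapped by the counting, so their separate values are uncertain. LINC00941 rose with sunitinib by 0.69 ± 0.12 (adjusted p = 0.000704) and LINC01116 by 0.37 ± 0.13 (adjusted p = 0.036), the call for LINC01116 being lost without replicate 3 (adjusted p = 0.0872). PVT1 gave -0.02 ± 0.08 with sunitinib (adjusted p = 0.865) and 0.22 ± 0.08 with compound 32 (adjusted p = 0.0643). The 84 lncRNAs named for a coding neighbour had 45 higher and 2 lower with sunitinib and 7 higher and 15 lower with compound 32.

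Of the 10 most abundant lncRNAs not described so far, FGD5-AS1 and LRRC75A-AS1 came next after NEAT1 and NORAD by CPM. FGD5-AS1 had 259, 270 and 259 CPM with compound 32, 203, 208 and 209 CPM with sunitinib and 242, 230 and 222 CPM with DMSO. Its groups did not overlap, with 0.19 ± 0.06 for compound 32 (adjusted p = 0.0465) and -0.16 ± 0.06 for sunitinib (adjusted p = 0.0512), the second of which was called without replicate 3 (-0.17, adjusted p = 0.000655). LRRC75A-AS1, also known as SNHG29, gave 0.34 ± 0.10 with sunitinib (adjusted p = 0.0174), with 288 CPM in replicate 3 and 219 and 225 CPM in the other two. Without that library the value was 0.20 (adjusted p = 0.000181).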

How the data were processed

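The deposited values are raw read counts per gene that the authors made for 9 libraries, as whole numbers. The submitters' processing notes list, with no roles, featureCounts, HISAT2 2.0.5, fastp, edgeR and DESeq2. Strand and multi-mapping settings are not stated in the sources used here. All 58735 genes match GENCODE 29 (GRCh38), although the notes list a mouse build beside hg38. The rule named 4 biotypes, of which lncRNA itself labelled no gene.

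Genes were kept by filterByExpr and scaled by TMM (factors 0.983 to 1.051), and CPM use these factors except in the selection and the shares. Genes were tested with edgeR's quasi-likelihood test (edgeR 4.0.16, R 4.3.3) with a group-means model over all 9 libraries (6 residual degrees of freedom, prior count 2) and Benjamini-Hochberg adjustment over 15232 genes. Values after ± on the log2 scale are standard errors, with 3 libraries per group. The procedure was tested on simulated data. Within groups, library pairs differed by more than sampling noise (chi-square per degree of freedom at least 1.82), and the pairs with sunitinib replicate 3 reached 41.3 and 40.3, against at most 3.04 elsewhere. Alternatives included DESeq2 1.42.0 and limma 3.58.1 (voom).

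Named were, per comparison, the 10 largest called rises and falls without overlap between groups, the 10 most abundant lncRNAs, up to 12 of each list by role, and up to 10 called in opposite directions by the compounds. A lncRNA that this rule names is not reported here. SNHG5, SNHG8, MUC20-OT1, AC020916.1, ENTPD1-AS1 and TTC28-AS1 were named outside the rule, after their values were seen. Coding genes are named as neighbours. BCAN, PRR11, TRHDE and the other neighbours described were chosen after their values were seen. The members and lists were chosen with earlier results of these data known.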

Additional observations from a re-analysis of the deposited data

How the results depend on the processing

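No value of a lncRNA named by the rule above changed sign past the threshold under any alternative. For compound 32 against DMSO, with only the 6 libraries compared, 38 were higher and 76 lower, beside 22.4% and 21.5% of all genes. Leaving out 1 library at a time gave 15 to 40 higher and 32 to 79 lower, the highest without sunitinib replicate 3 (40 and 79), while all genes gave 7.44 to 21.6% higher and 6.17 to 20.5% lower. At an adjusted p under 0.01 there were 12 higher and 27 lower, beside 6.41% and 4.85% of all genes. A limit of 2 CPM took 565 lncRNAs, with 42 higher and 71 lower with compound 32, 218 and 31 with sunitinib, and 62 and 273 between the compounds. A limit of 10 CPM took 134, with 58 higher and 15 lower with sunitinib, 15 and 37 with compound 32, and 18 and 73 between the compounds. The 112 genes overlapping no coding gene gave 47 and 11 with sunitinib, 15 and 17 with compound 32, and 18 and 60 between the compounds. In these 3 settings the shares of all genes were those of the main fit. They were 20.3% higher and 19.9% lower with sunitinib, 12% and 10.3% with compound 32, and 24.1% and 25.2% between the compounds. The last 3 settings change how many genes are counted, and the stricter adjusted p lowers the counts of the same fit by itself. For the others the cause was not tested.

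Upper-quartile scaling gave 141 higher and 21 lower with sunitinib, beside 25.9% and 15.2% of all genes. The median was 0.44, with the median of all genes at 0.10. Same-numbered libraries of different groups did not deviate together, with correlations between -0.077 and 0.061. With 3 libraries per group such values cannot exclude that the numbers pair the samples. With the replicate block the counts were 125 higher and 25 lower for sunitinib, 19 and 43 for compound 32, and 30 and 142 between the compounds. The shares of all genes were then 18.7% and 19.1%, 10.2% and 8.66%, and 23.2% and 23.9%.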

Other observations

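Below the limit of 5 CPM a further 1266 lncRNA genes passed the count filter. With sunitinib 285 of these were called higher (22.5%) and 31 lower (2.45%), beside 20.3% and 19.9% of all genes. The share called higher was thus near that of all genes, and the median log2 fold change was 0.41. With compound 32, 57 were higher (4.5%) and 65 lower (5.13%), with a median of -0.02, beside 12% and 10.3% of all genes. Against sunitinib, compound 32 gave 99 higher (7.82%) and 401 lower (31.7%), beside 24.1% and 25.2% of all genes. Expressed pseudogenes share sequence with their parent genes and so are uncertain. Of 249, sunitinib gave 46 higher (18.5%) and 23 lower (9.24%), and compound 32 gave 23 higher (9.24%) and 9 lower (3.61%). None of the lncRNAs listed by a symbol with HOX and -AS, or as HOTAIR, HOTTIP or HOTAIRM1, reached 5 CPM. Of 8 that passed the count filter, sunitinib raised 2 and compound 32 raised 1 against DMSO. HAGLR and HAGLROS, which that list leaves out, reached 5 CPM and are named after their values were seen. HAGLR, which starts 379 bases from the start of HOXD1 and lies across HOXD3, had a mean of 26.9 ± 0.937 CPM with compound 32, 35.5 ± 2.21 CPM with sunitinib and 27.5 ± 3.20 CPM with DMSO (SD, n = 3 each). It rose with sunitinib by 0.36 ± 0.09 on the log2 scale (SE; edgeR adjusted p = 0.00922) and gave -0.04 ± 0.09 with compound 32 (adjusted p = 0.835). HAGLROS was called with neither compound (adjusted p = 0.163 with compound 32 and 0.922 with sunitinib).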
